A study of Homo sapiens with 6 samples.

Results

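The 10 genes described here encode the glucose transporter SLC2A1 and 9 enzymes of glycolysis, namely HK1, HK2, GPI, PFKP, ALDOA, PGK1, PGAM1, ENO1 and LDHA. They were chosen by gene symbol from the 22984 genes measured on the sense strand, and each symbol had 1 entry in all 6 libraries. Nascent RNA was measured by Bru-seq, in which newly made RNA is labelled with bromouridine, captured and sequenced, so a value reports transcription over a 30 min labelling window and not the steady level of mature mRNA. The cells were HCT116, a human colorectal carcinoma line, and every library came from 1 culture. Control cells received 0.01% DMSO for 4 h in 2 cultures. One culture was treated with GSTO1 siRNA (siGSTO1) at 10 nM for 24 h, 2 with C1-27 at 1 μM for 4 h and 24 h, and 1 with C1-14 at 10 μM for 4 h. C1-27 inhibits GSTO1 (glutathione S-transferase omega 1), an enzyme with glutathione-dependent thioltransferase activity, and C1-14 is an analogue used as its inactive control. Cells given a non-targeting siRNA, or DMSO for 24 h, were not analysed here, so treatment, transfection and time cannot be told apart in siGSTO1 cells, nor treatment and time in cells given C1-27 for 24 h.

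Glycolysis converts glucose to pyruvate in the cytosol and yields ATP and NADH. Glucose enters through transporters such as SLC2A1 and is trapped by phosphorylation by a hexokinase, and phosphofructokinase catalyses the committed step. Many tumour cells, colorectal carcinomas among them, take up much glucose and turn pyruvate to lactate even with oxygen present. HK2, LDHA and other genes of the route are known targets of the transcription factors HIF1A and MYC.

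Total sense counts were 18112861 to 36841146 per library, and levels are given as RPKM, that is reads divided by gene length in kb and by mapped reads of the library in units of 1e6. The control libraries themselves differed, since 19.1% of 7825 genes above the expression filter (defined with the first comparison) were 1.4-fold or more apart between them. Of colorectal epithelial markers, 5 of 9 were above 0.5 RPKM in all libraries and 1 (VIL1) was below it in all, with summed RPKM of 16.4 to 34.7. Markers of immune, stromal, endothelial, liver and neural cells were below 0.5 RPKM in all libraries for 12 of 13 genes, with summed RPKM of 0.754 to 1.36. GSTO1 RPKM was 3.51 and 3.72 in DMSO and 2.70 in siGSTO1 cells, a ratio of 0.747 (edgeR adjusted p = 0.330). An siRNA acts on mature mRNA, so nascent RNA does not check the knockdown.

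In DMSO-treated cells the 10 genes spanned a wide range of transcription per length. ENO1 (enolase) was the highest, at 15.3 ± 1.26 RPKM (SD, n = 2), followed by LDHA (lactate dehydrogenase A) at 7.70 ± 1.16 and PGAM1 (phosphoglycerate mutase) at 5.19 ± 0.370. ALDOA (aldolase A) at 3.99 ± 2.58, PGK1 (phosphoglycerate kinase) at 3.26 ± 0.184, PFKP (platelet-type phosphofructokinase) at 2.48 ± 0.281 and GPI (glucose-6-phosphate isomerase) at 2.22 ± 0.866 came next. SLC2A1 at 1.61 ± 0.0803 and HK2 (hexokinase 2) at 1.56 ± 0.188 were close to each other, and HK1 (hexokinase 1) was the lowest at 0.302 ± 0.0664. By mean RPKM, the genes of the route from aldolase onwards all ranked above those of the earlier steps. The genes from aldolase onwards were also the shorter ones as counted, at 3223 to 22659 bp against 33802 to 131882 bp. Position in the route and gene length therefore cannot be told apart here. In the second DMSO culture ALDOA, at 2.16 RPKM, was below PFKP, at 2.29 RPKM. The ranges of the paired cultures did not overlap between ENO1, LDHA and PGAM1, nor between HK1 and any other gene. ALDOA overlapped PGAM1, PGK1, PFKP and GPI, GPI overlapped PFKP, SLC2A1 and HK2, and SLC2A1 overlapped HK2, so the order of those neighbours did not exceed the spread between cultures.

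All 10 genes were lower in the second DMSO culture than in the first. ALDOA was the furthest apart, at 0.373 of the first culture, followed by GPI at 0.567 and HK1 at 0.731, and the other genes were at 0.807 to 0.932. Among the 9 genes above the expression filter the median ratio was 0.852, against 0.948 over all 7825 genes. ALDOA and GPI were past 1.4-fold between untreated cultures, so a treated value for either gene depends on which control it is set against.

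**Figure D1:**
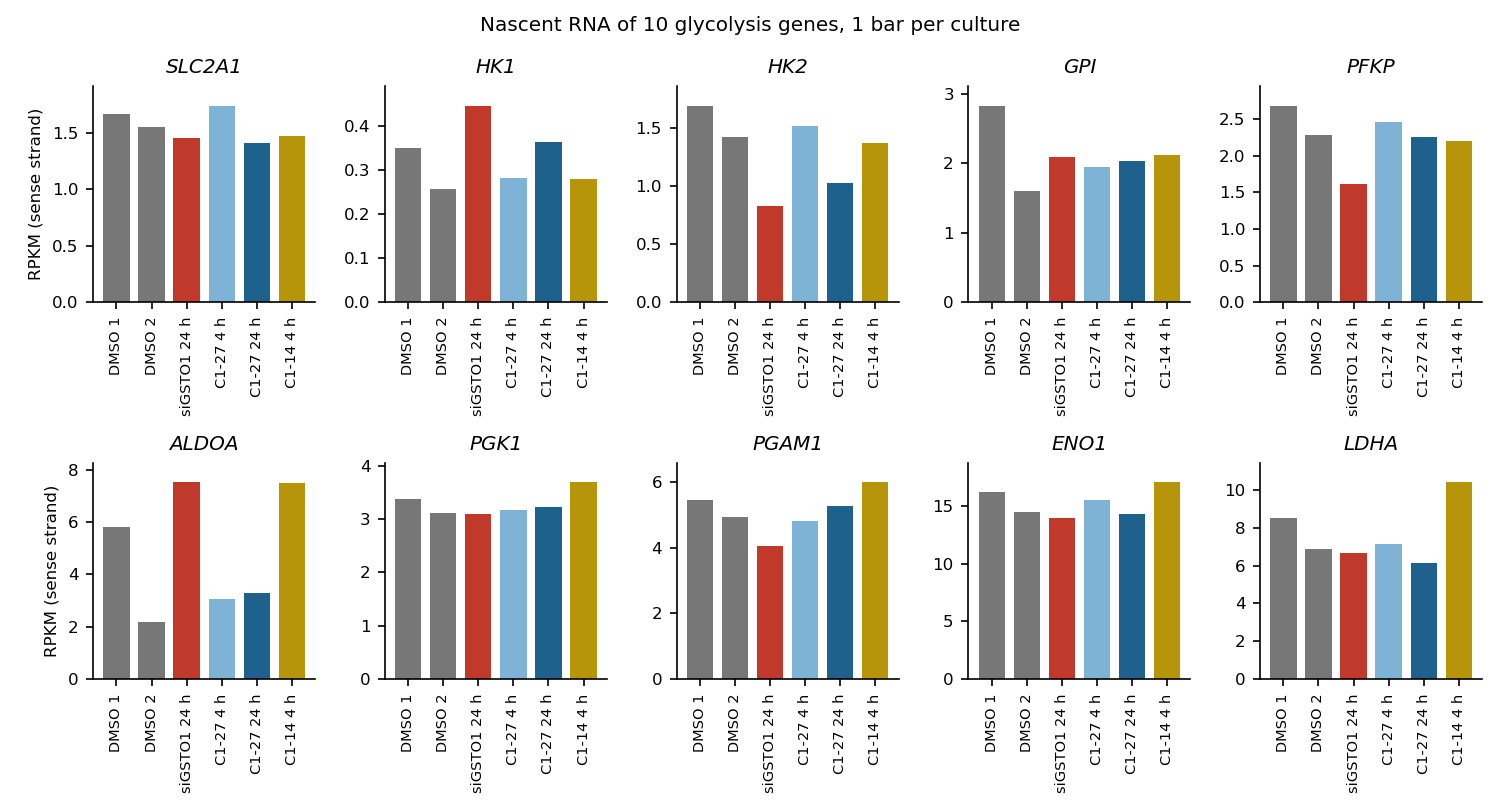
Nascent RNA of the 10 glycolysis genes in RPKM on linear axes that start at 0, 1 bar per culture, with both DMSO cultures in grey. HK2 and PFKP have their lowest bars in siGSTO1 cells (0.830 and 1.61 RPKM), and ALDOA differs between the DMSO cultures (5.81 and 2.16 RPKM).

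The first comparison asked which glycolysis genes changed transcription after GSTO1 knockdown. HK2 was the single gene of the 10 that passed the test, and it fell to 0.533 of the control level. PFKP was also past 1.4-fold lower and ALDOA past 1.4-fold higher, and neither passed the test across genes. Fold changes are ratios of the treated RPKM to the mean of both DMSO cultures, counted at 1.4-fold for genes longer than 300 bp whose RPKM, averaged over treated and control, exceeded 0.5. By that measure 3 of 9 genes were past 1.4-fold, against 16.9% of all 8138 genes, with 2 lower (6.48% of all genes) and 1 higher (10.5%). In edgeR's quasi-likelihood test over 14431 genes 1 of 10 was called at an adjusted p under 0.05, against 4.16% of all genes in either direction and 1.16% lower, and 3 of 10 had an unadjusted p under 0.05, against 14.3% of all genes. DESeq2 also called 1 of 10.

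HK2 phosphorylates glucose, binds the outer mitochondrial membrane and is the inducible hexokinase of many tumours. Its level was 1.69 and 1.42 RPKM in the DMSO cultures (2398 and 3523 counts), 0.830 RPKM in siGSTO1 cells (1322 counts), 1.52 and 1.03 RPKM with C1-27 for 4 h and 24 h, and 1.36 RPKM with C1-14. Both 24 h cultures were below every 4 h culture. The siGSTO1 level was 0.533 of the DMSO mean, and 0.491 and 0.583 of each DMSO culture. In edgeR the log2 fold change was −1.02 (SE 0.253, adjusted p = 0.00338). By fold, 87 of 8138 genes (1.07%) were further down than HK2 in siGSTO1 cells.

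HK2 spans chr2:75059782-75120481 on the plus strand (hg19), and the counts cover exons and introns of the whole span. RefSeq places 2 transcription start windows at the gene, each shown here from 250 bases before to 50 after the start, because HK2 is the gene that passed the test and its route is regulated by HIF1A and MYC in other settings. Capitals mark ACGTG, the core of the hypoxia-response element, on either strand (CACGT as printed where it lies on the opposite strand), and CACGTG, the E-box bound by MYC and related factors. An E-box contains the core, on both strands, and counts once under each name. A window of LDHA and one of PGK1 are set beside them as members of the same route with capitals of their own, and nothing was tested on these letters. Coordinates of these windows are GRCh38.p14 on the plus strand and cannot be set against the hg19 positions of the counts.
HK2, chr2:74833877-74834176: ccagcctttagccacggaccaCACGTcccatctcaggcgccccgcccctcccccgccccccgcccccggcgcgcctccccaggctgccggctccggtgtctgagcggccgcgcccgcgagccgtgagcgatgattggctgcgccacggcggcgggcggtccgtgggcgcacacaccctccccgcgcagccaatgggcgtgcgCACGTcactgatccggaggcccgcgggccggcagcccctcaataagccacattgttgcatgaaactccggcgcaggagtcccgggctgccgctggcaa
HK2, chr2:74834920-74835219: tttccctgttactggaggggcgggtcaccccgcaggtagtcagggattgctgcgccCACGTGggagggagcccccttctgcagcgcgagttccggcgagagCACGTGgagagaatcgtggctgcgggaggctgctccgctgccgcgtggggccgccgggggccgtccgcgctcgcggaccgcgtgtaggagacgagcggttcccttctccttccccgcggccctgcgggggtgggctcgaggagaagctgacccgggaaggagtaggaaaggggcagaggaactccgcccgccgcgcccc
LDHA, chr11:18394313-18394612: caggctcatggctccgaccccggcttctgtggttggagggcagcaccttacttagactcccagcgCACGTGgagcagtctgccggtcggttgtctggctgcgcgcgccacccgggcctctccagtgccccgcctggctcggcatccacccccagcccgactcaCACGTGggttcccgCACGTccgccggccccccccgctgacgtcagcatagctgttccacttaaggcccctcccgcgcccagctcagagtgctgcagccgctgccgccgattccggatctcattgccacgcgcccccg
PGK1, chrX:78103998-78104297: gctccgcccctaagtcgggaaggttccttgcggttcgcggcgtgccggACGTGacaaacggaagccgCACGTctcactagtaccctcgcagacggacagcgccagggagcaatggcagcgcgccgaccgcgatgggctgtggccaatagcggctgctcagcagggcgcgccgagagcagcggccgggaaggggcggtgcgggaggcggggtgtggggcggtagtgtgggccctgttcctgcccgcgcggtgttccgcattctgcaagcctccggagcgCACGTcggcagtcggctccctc
The first HK2 window holds 2 ACGTG cores and no E-box, and the second holds 2 E-boxes. The LDHA window shown holds 3 cores, of which 2 are E-boxes, and the PGK1 window holds 3 cores and no E-box. A second LDHA window, chr11:18396101-18396400, holds neither and is not printed.

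Across the family, all 10 genes were matched and had 23 such windows. ACGTG was found in 9 windows of 6 genes, namely HK2, GPI, PFKP, ALDOA, PGK1 and LDHA, against 21.4% of 35116 RefSeq promoter windows of 300 bases. CACGTG was found in 3 windows, of HK2, ALDOA and LDHA, against 7.26%. GGGCGG, the GC box, searched on both strands, was found in 13 windows of 9 genes, against 45.0%. SLC2A1, HK1, PGAM1 and ENO1 held no ACGTG in these windows.

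HK1, the hexokinase of most tissues, had its highest value in siGSTO1 cells, where HK2 had its lowest. Its level was 0.349 and 0.255 RPKM in DMSO, 0.445 RPKM in siGSTO1 cells, 0.282 and 0.362 RPKM with C1-27 for 4 h and 24 h, and 0.278 RPKM with C1-14. The 1.47-fold difference in siGSTO1 cells was 1.27-fold and 1.74-fold against each DMSO culture, did not pass the test (edgeR adjusted p = 0.444), and was not counted because the gene was under 0.5 RPKM. The ratio of HK2 to HK1 RPKM was 4.83 and 5.57 in DMSO, 1.86 in siGSTO1 cells, 5.38 and 2.83 with C1-27 for 4 h and 24 h, and 4.91 with C1-14. Both 24 h cultures were therefore below the 4 h cultures, which all lay between 4.83 and 5.57. Summed RPKM of both hexokinases was 2.04 and 1.68 in DMSO and 1.27 in siGSTO1 cells. HK3 and HKDC1, the other hexokinase genes listed, were at most 0.0648 RPKM in every library.

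**Figure D2:**
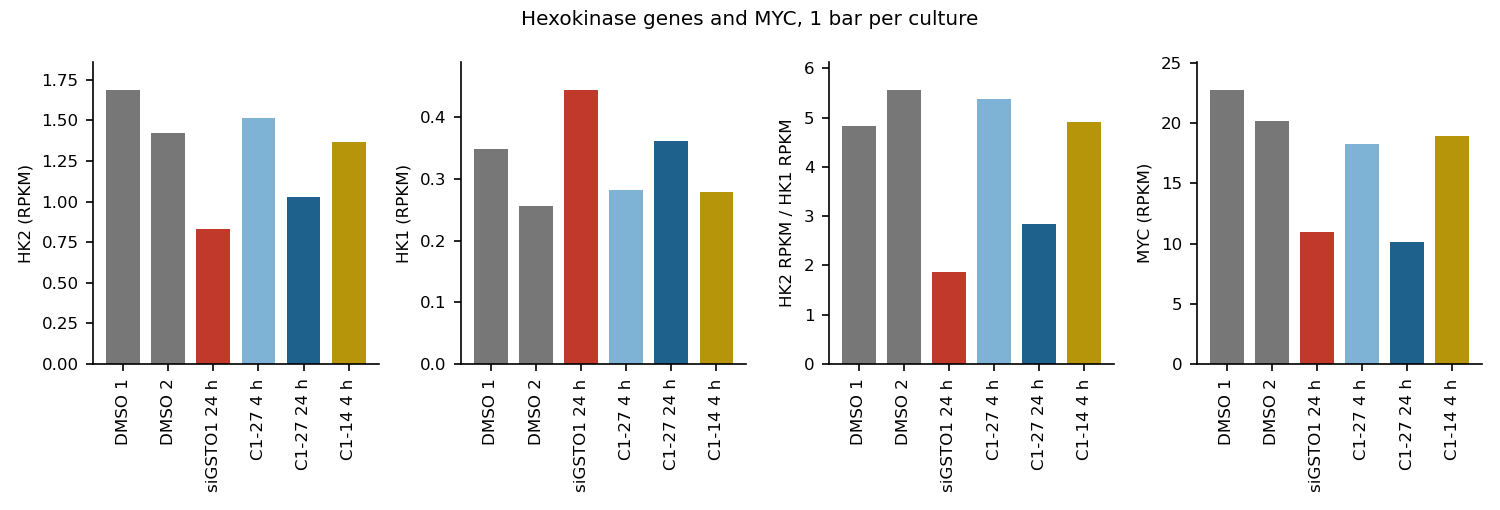
HK2, HK1, the ratio of HK2 to HK1 RPKM and the transcription factor gene MYC, 1 bar per culture, on linear axes from 0 (RPKM, or a ratio of RPKM). HK2, its ratio to HK1 and MYC are lower in both 24 h cultures than in the 4 h cultures.

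PFKP is the platelet-type subunit of phosphofructokinase, which makes fructose-1,6-bisphosphate. It had 2.68 and 2.29 RPKM in DMSO, 1.61 RPKM in siGSTO1 cells, 2.46 and 2.26 RPKM with C1-27 for 4 h and 24 h, and 2.20 RPKM with C1-14. The siGSTO1 culture was the lowest, at 0.650 of the DMSO mean and 0.602 and 0.706 of each culture. In edgeR the log2 fold change was −0.73 (SE 0.257, adjusted p = 0.0839), short of the threshold. The gene of the muscle-type subunit, PFKM, was at 1.53 and 1.41 RPKM in DMSO and 1.65 RPKM in siGSTO1 cells, 1.12-fold the DMSO mean. The ratio of PFKP to PFKM was 1.75 and 1.62 in DMSO, 0.980 in siGSTO1 cells and 1.43 to 1.60 in the other treated cultures.

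The remaining 6 genes after knockdown, SLC2A1, GPI, PGK1, PGAM1, ENO1 and LDHA, were at 0.780 to 0.954 of the DMSO mean, with a lowest edgeR adjusted p of 0.473. PGAM1 was the lowest of them, at 4.05 RPKM against 5.45 and 4.93 RPKM. In all, 8 of 9 genes above the filter were under the DMSO mean, against 50.1% of all genes, and the median ratio was 0.901, against 0.9995 over all genes. The scale bears on this comparison more than on the others. TMM factors moved the median log2 ratio of all genes from −0.0007 to −0.12 and DESeq2 size factors to −0.15. The share of higher genes among those past 1.4-fold went from 61.8% to 38.2% and 31.0%.

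**Figure D3:**
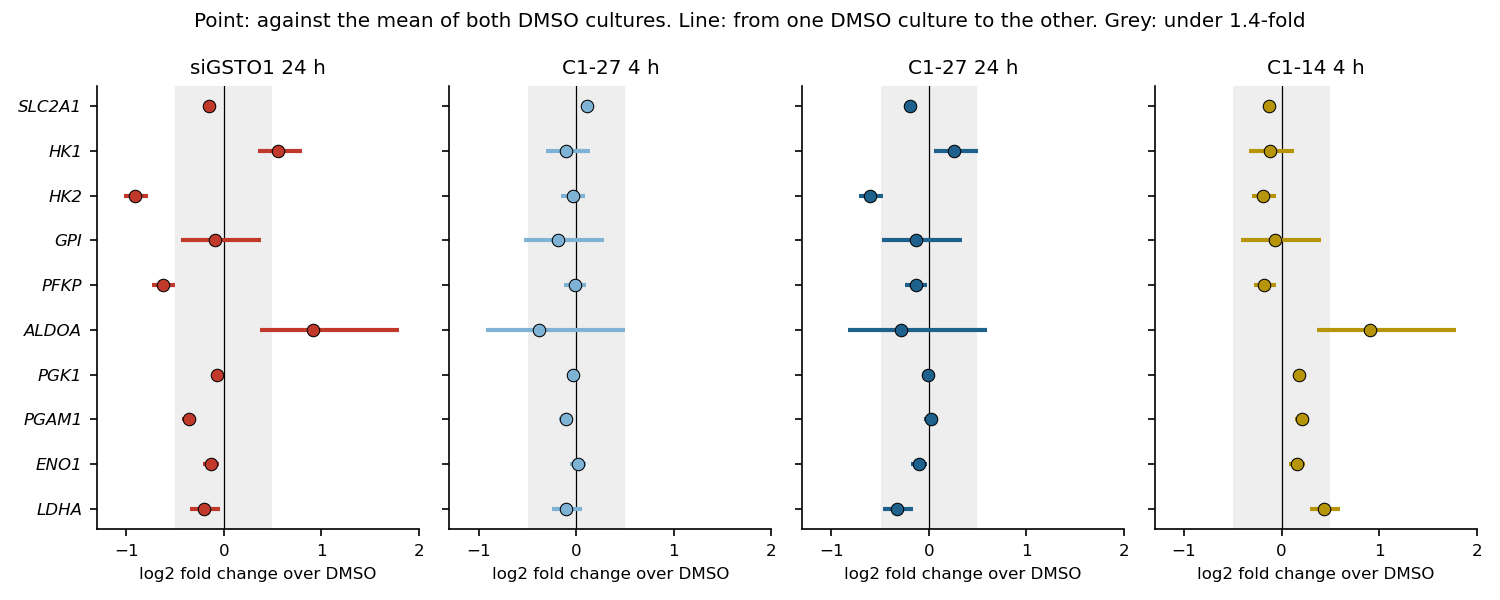
Log2 ratio of treated to DMSO RPKM for each glycolysis gene and treatment, with points against the mean of both DMSO cultures, lines running between the ratios to each culture, and grey for less than 1.4-fold. HK2 and PFKP in siGSTO1 cells lie wholly outside the grey band, PFKP narrowly, whereas the ALDOA and GPI lines are long because their DMSO cultures differed.

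After C1-27 for 4 h none of the 9 genes above the filter was past 1.4-fold, where 2.67% of 7667 genes were. HK2 stood at 0.974 of the DMSO mean, PFKP at 0.988, PGK1 at 0.978, ENO1 at 1.01 and SLC2A1 at 1.08. ALDOA was the furthest from DMSO at 0.767, and was 0.527 and 1.41 of the separate DMSO cultures, so its direction depended on the control. No gene of the 10 was called by edgeR (0.0139% of all genes) or DESeq2, and none had an unadjusted p under 0.05 in either. The median ratio was 0.974, against 0.993 over all genes.

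With C1-27 for 24 h, HK2 was the gene furthest from the DMSO mean. It was at 0.660 of the DMSO mean and at 0.608 and 0.721 of each culture, the last of these short of 1.4-fold. ALDOA was at 0.821 of the DMSO mean but at 0.563 and 1.51 of the separate cultures, so against the second DMSO culture alone it was the gene past 1.4-fold, higher, and HK2 was not. In edgeR the log2 fold change of HK2 was −0.65 (SE 0.248), with an unadjusted p of 0.00864 and an adjusted p of 0.682, so it was not called. Against the DMSO mean HK2 was the 1 of 9 genes past 1.4-fold, against 6.72% of 7918 genes in either direction and 3.49% lower. LDHA, which reduces pyruvate to lactate, was next, at 0.797 (0.720 and 0.892 of each culture; edgeR adjusted p = 1.0). SLC2A1 was at 0.874, PFKP at 0.910 and ENO1 at 0.930, while PGK1 and PGAM1 were at 0.993 and 1.02. The median ratio was 0.910, against 1.02 over all genes, and none of the 10 was called by edgeR (0.277% of all genes) or DESeq2.

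Comparing C1-27 at 24 h with 4 h directly gave ratios from 0.677 (HK2) to 1.29 (HK1). HK2 had an unadjusted p of 0.0215 and every adjusted p was 1.0 in edgeR, which called none of the 10 and 0.104% of all genes. Set against C1-27 at 24 h, the siGSTO1 culture had ratios from 0.714 (PFKP) to 2.30 (ALDOA), with HK2 at 0.808. The lowest edgeR adjusted p was 0.226, for ALDOA, and none of the 10 was called (0.991% of all genes). With 1 culture on each side, these fits borrow their spread from the DMSO pair.

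C1-14 was given at 10 μM and C1-27 at 1 μM, so the 4 h values are set side by side and not compared. With C1-14, HK2 was at 0.877 of the DMSO mean and PFKP at 0.886, against 0.974 and 0.988 with C1-27. LDHA was at 10.4 RPKM against 8.53 and 6.88 RPKM in DMSO, 1.36-fold higher (1.22-fold and 1.52-fold against each culture), with an unadjusted edgeR p of 0.0524 and an adjusted p of 1.0. PGAM1, PGK1 and ENO1 were 1.16-fold, 1.14-fold and 1.11-fold higher, in that order, each above both DMSO cultures and none near the test's threshold. ALDOA was the 1 gene of 9 past 1.4-fold, where 4.73% of 7784 genes were in either direction and 3.71% higher. It was 1.88-fold higher, with an edgeR log2 fold change of 0.95 (SE 0.336, unadjusted p = 0.00450, adjusted p = 0.927). The median ratio was 1.11, against 1.00 over all genes, and none of the 10 was called by edgeR (0.118% of all genes) or DESeq2.

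ALDOA, which cleaves fructose-1,6-bisphosphate, was high in the first DMSO culture, siGSTO1 and C1-14 and low in the other 3 libraries. Its RPKM was 5.81 and 2.16 in DMSO, 7.53 in siGSTO1 cells, 3.06 and 3.27 with C1-27 for 4 h and 24 h, and 7.50 with C1-14, from 284 to 838 counts. It was 1.89-fold higher in siGSTO1 cells (1.30-fold and 3.48-fold against each DMSO culture; edgeR adjusted p = 0.176). Only 3223 of its 17331 bp (18.6%) were counted, in a region of chromosome 16 where 5 other entries overlap it.

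The enzymes next to aldolase in the route had the same high and low libraries. TPI1, which interconverts the triose phosphates, had 7.65 and 4.00 RPKM in DMSO, 7.79 in siGSTO1 cells, 4.29 and 4.90 with C1-27 and 9.97 with C1-14. GAPDH, which oxidizes glyceraldehyde-3-phosphate, had 26.7 and 11.8 RPKM in DMSO, 23.0 in siGSTO1 cells, 14.6 and 15.9 with C1-27 and 34.1 with C1-14. All 3 are short as counted, with less than 5 kb each, and short genes in general moved with the library. Over the 1041 genes under 5 kb the median of log2 RPKM relative to the gene's mean was 0.15 and −0.20 in DMSO, 0.11 in siGSTO1 cells, −0.15 and −0.06 with C1-27 and 0.15 with C1-14. Between the DMSO cultures the median ratio was 0.787 for genes under 5 kb and 1.06 for the 2411 genes over 50 kb. The part of gene length in the values of ALDOA, TPI1 and GAPDH was not tested. HK2 and PFKP, at 60700 and 69286 bp, are in the longest class.

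**Figure D4:**
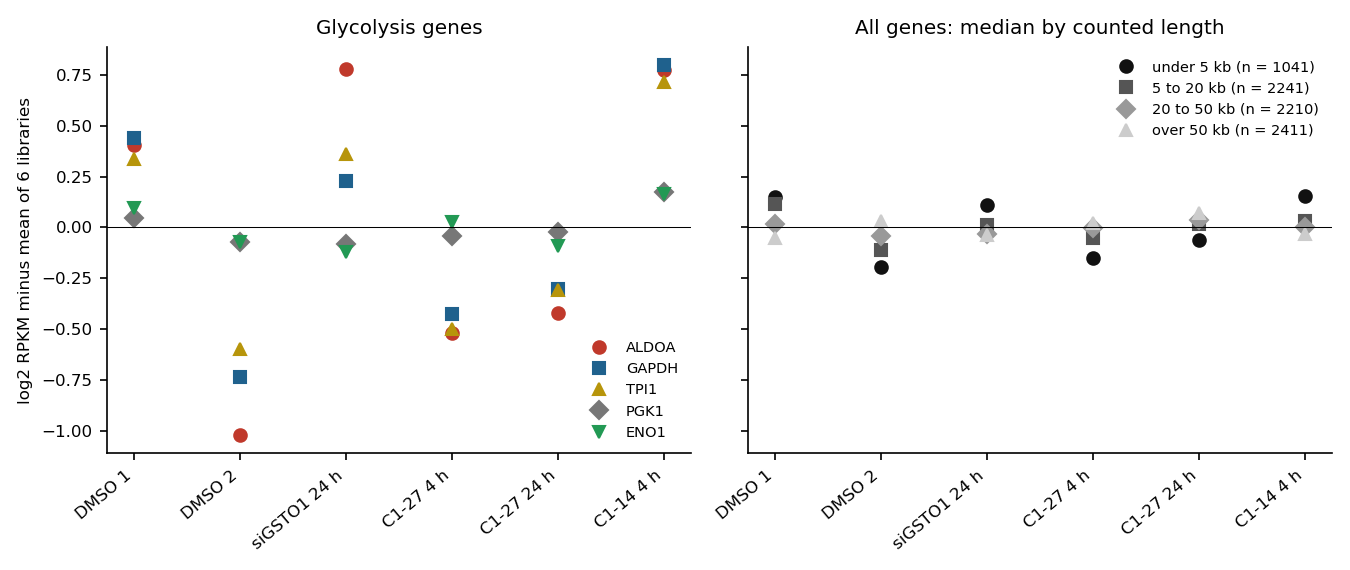
Log2 RPKM of single genes minus their mean over the 6 libraries (left) and the median of the same quantity over all genes by counted length (right). ALDOA, GAPDH and TPI1 share high (DMSO 1, siGSTO1, C1-14) and low (DMSO 2, C1-27) libraries, genes under 5 kb show the same order of sign with medians of −0.20 to 0.15, and PGK1 and ENO1 range from −0.08 to 0.17 and −0.12 to 0.17.

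LDHA and LDHB encode the subunits of lactate dehydrogenase. LDHA RPKM was 8.53 and 6.88 in DMSO, 6.70 in siGSTO1 cells, 7.16 and 6.14 with C1-27 for 4 h and 24 h, and 10.4 with C1-14. The LDHA to LDHB ratio was 0.607 and 0.371 in DMSO, 0.561 in siGSTO1 cells, 0.386 and 0.373 with C1-27 and 0.564 with C1-14, so the treated cultures lay between the DMSO cultures. SLC2A1, which imports glucose, stayed at 1.41 to 1.74 RPKM, PGK1 at 3.11 to 3.70, ENO1 at 14.0 to 17.1, PGAM1 at 4.05 to 6.0 and GPI at 1.60 to 2.83. Summed RPKM of all 10 genes was 48.6 and 38.7 in DMSO, 41.8 in siGSTO1 cells, 41.7 and 39.3 with C1-27 and 52.1 with C1-14. Of the treated cultures, C1-14 alone was outside the DMSO values.

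Further genes of the route were read against the share over all genes. Of 24 further enzymes and isoenzymes measured, 7 were above the filter, among them PKM2 (the file's name for the muscle pyruvate kinase gene) at 5.97 to 7.27 RPKM. None of the 7 was past 1.4-fold with siGSTO1 (16.9% of all genes) or with C1-27 for 4 h and 24 h (2.67% and 6.72%). With TMM or DESeq2 rescaling 1 was lower with siGSTO1. With C1-14 2 were higher, TPI1 at 1.71-fold and GAPDH at 1.77-fold, against 3.71% of all genes. None of the 16 tested was called by edgeR or DESeq2 in any treatment, but 5 with siGSTO1 had an unadjusted edgeR p under 0.05, where 14.3% of all genes did. With C1-27 for 4 h and 24 h 1 and 2 of them did, against 0.721% and 3.74% of all genes, and with C1-14 2 did, against 1.42%. The largest rises among these enzymes with siGSTO1 were in isoenzymes under 0.5 RPKM in every library, named after their values were seen. Their edgeR log2 fold changes were 2.02 (ALDOC), 1.52 (ENO3), 1.31 (HKDC1) and 1.115 (ENO2). The largest fall was that of LDHB (−0.56). Of genes for glucose entry and its regulators, none of 3 above the filter was past 1.4-fold with siGSTO1, where 16.9% of all genes were. With C1-27 for 24 h 1 of 3 was lower, ARRDC4 at 0.660, against 3.49% of all genes. The gene SLC2A12, a glucose transporter at 0.0138 and 0.0181 RPKM in DMSO, was called higher in siGSTO1 cells at 0.0895 RPKM (edgeR adjusted p = 0.000873) but not by DESeq2 (adjusted p = 0.108), and is named after its value was seen. Among 11 genes above the filter for the fate of pyruvate and lactate, 1 was lower with siGSTO1 (PDP1, 0.671), against 6.48% of all genes. PDP1 was at 0.869 and 0.546 of the separate DMSO cultures, the first of these short of 1.4-fold. With DESeq2 size factors 2 were lower. With C1-27 for 4 h 1 was lower (BSG, 0.704), where 170 of 7667 genes were. BSG was at 0.526 and 1.06 of the separate DMSO cultures, so its direction depended on the control. None of 16 tested was called by edgeR or DESeq2. An unadjusted edgeR p under 0.05 was found for 2 of them with siGSTO1, against 14.3% of all genes, and for none otherwise.

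MYC, a transcription factor that activates HK2 and LDHA in other settings, was lower in both 24 h cultures. Its RPKM was 22.8 and 20.2 in DMSO, 10.96 in siGSTO1 cells, 18.3 and 10.1 with C1-27 for 4 h and 24 h, and 19.0 with C1-14. The ratio to DMSO was 0.510 in siGSTO1 cells (edgeR log2 fold change −1.08, adjusted p = 0.00133) and 0.471 with C1-27 for 24 h (−1.14, adjusted p = 0.00453). MYC and HK2 were thus low in the same cultures, although HK2 was called in siGSTO1 cells only, and a link between them was not tested. LDHA was called in neither.

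Genes of the hypoxia response, many of them HIF1A targets, were counted in the same way. In siGSTO1 cells 4 of 9 above the filter were higher and 1 was lower past 1.4-fold, against 10.5% and 6.48% of all genes, and these counts were the same with TMM and DESeq2 rescaling. The median ratio was 1.396 (1.29 and 1.26 when rescaled), against 0.9995 over all genes. Of 17 tested, edgeR called 3, all higher, against 4.16% of all genes, and DESeq2 called 2. DDIT4, an inhibitor of mTORC1, rose 13.5-fold, from 0.887 and 0.546 RPKM in DMSO to 9.70 RPKM (edgeR adjusted p = 5.29e-12). BNIP3L and NDRG1, the other 2 called, are named after their values were seen and rose 2.95-fold and 2.91-fold from at most 0.25 RPKM, with BNIP3L not called by DESeq2 (adjusted p = 0.154). ADM, the gene of the vasodilator adrenomedullin, was at 0.470 and did not pass the test (edgeR adjusted p = 0.228). With C1-27 for 24 h, 2 of 9 genes of this list above the filter were higher and 1 was lower past 1.4-fold. Over all 7918 genes, 256 were higher and 276 lower. The median ratio of the list was 1.27, against 1.02 over all genes, and DDIT4 was at 2.31. In the 4 h cultures the median of the list was 0.881 with C1-27 and 0.956 with C1-14. HIF1A itself was at 0.955 of the DMSO mean in siGSTO1 cells and at 1.07 with C1-27 for 24 h. Its DMSO cultures differed, at 2.87 and 4.36 RPKM, so its direction depended on the control. Against the first and second DMSO culture it was at 1.20 and 0.792 in siGSTO1 cells. With C1-27 for 24 h it was at 1.35 and 0.884 in that order. Of 5 transcription factor genes above the filter, 1 was higher (ARNT) and 1 lower (MYC) past 1.4-fold in siGSTO1 cells. All genes gave 10.5% and 6.48%, and ARNT was not past 1.4-fold with TMM or DESeq2 rescaling. Of 7 tested, 3 had an unadjusted edgeR p under 0.05 there, against 14.3% of all genes, and MYC alone was called. EPAS1 and MLXIPL, under the filter, were at 1.70 and 2.24 and, like ARNT, are named after their values were seen. Glycolysis genes, HK2 and LDHA among them, include known HIF1A targets, and their ratios went in both directions in siGSTO1 cells. SLC2A1, PGK1, LDHA and ENO1 were at 0.901, 0.954, 0.870 and 0.910 there. The other glycolysis genes were at 0.533 (HK2), 0.650 (PFKP), 0.780 (PGAM1), 0.941 (GPI), 1.47 (HK1) and 1.89 (ALDOA) there. ALDOA was at 1.30 and 3.48 of the separate DMSO cultures. The part of hypoxia signalling in these values was not tested.

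The reading of single genes has limits set by the counting. Reads on the opposite strand were at most 3.78% of a gene's reads for the 9 genes with an antisense entry, and highest for PGAM1 and GPI. Pseudogenes named after the parent gene are annotated for PGAM1 (13), LDHA (6), ENO1 (4), ALDOA (2), HK2 (1) and PGK1 (1), and reads that such copies share with the parent could be placed with either. SLC2A1 overlaps a gene on the opposite strand at its start. Annotated coding starts of HK1 and PFKP are spread over 48860 and 66902 bp on GRCh38, while RPKM divides by the whole counted length. The RPKM of HK1 and PFKP, and their ratios to other genes, can therefore depend on the starts in use. The part of start choice in these values was not tested.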

How the data were processed

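Bru-seq libraries of 6 HCT116 cultures were analysed. Per the labels and the submitters' processing notes, reads were handled with CASAVA 1.8.2, Bowtie 0.12.8, TopHat 1.4.1 and bedtools 2.16.2 on hg19. The authors deposited expected counts of reads in exons and introns of each gene by strand, without normalization and whole to within 0.001 for 72.7% to 81.7% of values, and RPKM made from reads, gene length and mapped reads. The deposited signal, reads per bp, was used only to recover the mapped totals of 23388424 to 46017051 reads. In 48 ambiguous entries, left out, lay 1.84% to 2.00% of counts.

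Libraries were grouped by the labels' treatment and time. The first measure was the RPKM ratio to the mean of the DMSO pair, with no pseudocount, for genes over 300 bp with a mean RPKM above 0.5, counted at 1.4-fold. The second was edgeR 4.0.16 in R 4.3.3 on counts rounded to whole numbers (TMM, quasi-likelihood F test, 5 groups, at least 10 counts in at least 2 libraries, Benjamini-Hochberg over 14431 genes). Its spread came from 1 residual degree of freedom, the DMSO pair, and the lone treated cultures were assumed to vary like it. SE values given with edgeR were the absolute log2 fold change divided by the square root of the F statistic. Nothing says whether the DMSO cultures were independent experiments, so p-values measure only their spread. DESeq2 1.42.0, RLE factors, no count filter, other RPKM filters, a pseudocount of 0.1, rescaled RPKM, and each DMSO culture alone were alternatives. Levels used Python 3.11.15, numpy 2.4.6, pandas 2.3.3, scipy 1.17.1 and matplotlib 3.10.9. edgeR was tested on simulated data. Promoter windows and motif shares were from RefSeq GRCh38.p14, and pseudogenes were counted from GENCODE on GRCh38.

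The members and lists were chosen with earlier results of these data known. Genes named were all members, GAPDH, TPI1, PKM2, GSTO1, the 5 genes nearest in profile, and list genes past 1.4-fold against each DMSO culture with an edgeR adjusted p under 0.05, with exceptions said where they are named. Other list genes are given as counts, with examples named after their values were seen. An item of the marker list is not reported here and was left out of its counts and sums.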

Additional observations from a re-analysis of the deposited data

How the results depend on the processing

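HK2 in siGSTO1 cells was called in all 4 alternative count fits, with log2 fold changes of −1.05 to −1.01 and adjusted p of 0.00767 to 0.0195 (edgeR or DESeq2), and its RPKM ratio was 0.482 to 0.583 over 5 alternatives. With C1-27 for 24 h its ratio was 0.608 to 0.721. Each treatment has 1 culture, so no treated culture could be left out, and the DMSO pair sets every spread. Leaving out either DMSO culture gave 0 to 2 glycolysis genes past 1.4-fold with C1-14 (1 with both), 1 to 2 with C1-27 for 24 h (1 with both), 1 to 2 with C1-27 for 4 h (0 with both) and 2 to 3 with siGSTO1 (3 with both). The glycolysis genes counted and their directions changed with the culture left out. Counts over all genes moved too. Higher genes past 1.4-fold with C1-14 were 575 without the first DMSO culture and 323 without the second (289 with both). In that order they were 520 and 377 with C1-27 for 24 h (256) and 40 and 156 for 4 h (35). With siGSTO1 they were 1381 and 736 (852). Lower genes were 16 and 584 with C1-14 (79) and 31 and 969 with C1-27 for 4 h (170). Against the first and second DMSO culture, ALDOA was at 0.527 and 1.41 with C1-27 for 4 h, 0.563 and 1.51 for 24 h, 1.29 and 3.47 with C1-14 and 1.30 and 3.48 with siGSTO1. GPI was at 0.689 and 1.22 with C1-27 for 4 h and 0.738 and 1.30 with siGSTO1, LDHA at 1.22 and 1.52 with C1-14, and HK2 at 0.608 and 0.721 with C1-27 for 24 h. DESeq2 called fewer genes than edgeR, 213 against 601 (433 higher, 168 lower) with siGSTO1, 18 against 40 with C1-27 for 24 h, 0 against 2 with C1-27 for 4 h, 2 against 17 with C1-14, 5 against 15 between the C1-27 times and 22 against 143 between siGSTO1 and C1-27 for 24 h, and the cause was not tested. RLE factors gave 1 call and no count filter gave 1 call with C1-27 for 4 h. Higher genes past 1.4-fold were 48.1% with C1-27 for 24 h, 34.9% with TMM and 31.1% with DESeq2 size factors. Among the count fits, the directions that reversed had log2 values close to 0. ALDOA between the C1-27 times went from 0.0187 to −0.0180 with DESeq2 and with RLE factors. HK2 with C1-27 for 4 h went from −0.0088 to 0.0125 (DESeq2 and RLE factors), 0.00287 (no filter) and 0.00924 (compared libraries only), and PGK1 from −0.0049 to 0.0149, 0.00571 and 0.0122 in that order. No paired analysis was possible because treated groups hold 1 culture each and share fewer than 2 replicate numbers with DMSO.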

Other observations

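The 5 genes whose profile over the 6 libraries was nearest to the median profile of the glycolysis genes, by Euclidean distance of centred log2 RPKM among 7851 genes, were POLDIP2 (0.0540), CALML4 (0.0711), PDCD5 (0.0812), CCT5 (0.0839) and SF3A3 (0.0893). CCT5 had 7.81 and 6.54 RPKM in DMSO, 6.74 in siGSTO1 cells, 6.98 and 6.72 with C1-27 and 8.07 with C1-14. With 6 libraries and small changes, many genes lie close to such a profile, and the distances are a description.

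Of side branches of the route, 2 of 6 genes above the filter were higher past 1.4-fold with siGSTO1 and none was lower, against 10.5% and 6.48% of all genes, and 1 was higher with TMM or DESeq2 rescaling. They were PYGB (glycogen phosphorylase, brain type) at 1.45-fold and GFPT1, which opens the hexosamine pathway, at 1.58-fold. PCK2, mitochondrial phosphoenolpyruvate carboxykinase, was called higher there, with 0.317 and 0.152 RPKM in DMSO and 0.734 RPKM in siGSTO1 cells (edgeR adjusted p = 0.0430, DESeq2 adjusted p = 0.417), and was named after its value was seen. Of 8 epithelial markers above the filter, 3 were higher and 1 was lower past 1.4-fold with siGSTO1, against 10.5% and 6.48% of all genes. When rescaled, 2 and 2 of 7 were. ELF3 was 3.78-fold higher (edgeR adjusted p = 0.00919, DESeq2 0.168), while KRT18 was at 0.605 and KRT8 at 0.732. KRT8 was at 0.506 with C1-27 for 24 h (edgeR adjusted p = 0.0441, DESeq2 0.622). Of the markers of other cells SYP, at 0.283 RPKM with siGSTO1, was called higher by edgeR (adjusted p = 0.00143) and not by DESeq2 (0.334).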
